A study of Homo sapiens with 24 samples.

Results

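The G2/M and mitosis genes are 36 genes that cells switch on to enter and complete division, out of 17199 named genes measured on 24 one-colour arrays. They were taken by gene symbol, with older symbols brought up to date, and not by any value: all 36 were found, through 49 probes, with 24 genes on a single probe and 12 on 2 or more. The platform lists CDK1 under its older symbol CDC2. The arrays were run on RNA of SK-N-AS and IMR-32, 2 established human lines of neuroblastoma, a childhood tumour of the sympathetic nervous system; MYCN is amplified in IMR-32. The transgene label of an array is either HOXC9, a homeobox transcription factor, or GFP, the green fluorescent protein that serves as its control, and its hour is 0, 6, 12, 24, 48 or 96 h. This gives 4 groups of 6 arrays (IMR-32 HOXC9, IMR-32 GFP, SK-N-AS HOXC9 and SK-N-AS GFP) with 1 array for each line, label and hour, so the hours stand in for replicates. P-values measure the spread between these arrays, which may come from 1 culture of each kind. The labels give no vector, promoter, clone or treatment, and do not say what starts the clock at 0 h. In bulk RNA, fewer dividing cells and less RNA of these genes per cell cannot be told apart.

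A cell enters mitosis when cyclin B binds the kinase CDK1 and the phosphatase CDC25C removes inhibitory phosphates from it. The genes that carry division through, from the centromere and spindle to the cut between daughter cells, are transcribed late in the cycle. Their promoters are known for a CHR element, bound by the DREAM complex in resting cells and by MYBL2 with MuvB and FOXM1 in dividing cells, and for CCAAT boxes, bound by NF-Y. In neuroblastoma, high levels of such genes are known to go with fast-growing tumours.

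Promoter windows of 300 bases, from 250 before to 50 after the start in the RefSeq annotation of GRCh38.p14, were matched for 29 of the 36 genes, with 36 windows in all. FOXM1, BIRC5, UBE2C, RACGAP1, TPX2, TTK and AURKA had none matched. The letters of the CHR element, TTTGAA on either strand, were in 24 of the 36 windows (66.7%) and in 15.2% of all 35116 windows. The letters of the CCAAT box, CCAAT on either strand, were in 28 windows (77.8%) and in 34.6% of all windows. Both were in 20 windows (55.6%) and in 5.9% of all windows. Each motif was searched on its own, so matches that share letters count for both. A match describes the letters and not a bound site. The windows below are those of the 4 genes that were higher with HOXC9 in IMR-32 with or without 2 arrays that stand apart there, and for which a window was matched. Each window is written on the strand of its gene, from 250 bases before the start to 50 after it, with CHR and CCAAT letters in capitals.

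CDC20: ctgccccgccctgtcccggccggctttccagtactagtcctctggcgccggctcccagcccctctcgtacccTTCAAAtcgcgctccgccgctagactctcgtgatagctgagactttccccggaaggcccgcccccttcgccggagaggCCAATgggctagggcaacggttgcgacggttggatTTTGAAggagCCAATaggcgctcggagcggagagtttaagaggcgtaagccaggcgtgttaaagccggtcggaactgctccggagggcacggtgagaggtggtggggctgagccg
CENPA: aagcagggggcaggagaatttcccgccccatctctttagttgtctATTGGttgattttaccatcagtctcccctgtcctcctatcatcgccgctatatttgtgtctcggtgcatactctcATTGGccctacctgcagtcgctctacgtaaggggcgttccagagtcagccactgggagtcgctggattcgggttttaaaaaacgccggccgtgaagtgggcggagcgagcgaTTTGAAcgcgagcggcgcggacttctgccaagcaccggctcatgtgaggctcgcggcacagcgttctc
MAD2L1: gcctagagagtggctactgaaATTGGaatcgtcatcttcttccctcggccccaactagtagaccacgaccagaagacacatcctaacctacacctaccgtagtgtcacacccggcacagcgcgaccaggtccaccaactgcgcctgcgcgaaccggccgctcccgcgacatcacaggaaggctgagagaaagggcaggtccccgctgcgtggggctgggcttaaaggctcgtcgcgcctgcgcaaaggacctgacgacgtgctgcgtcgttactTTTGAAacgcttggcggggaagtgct
KIF2C: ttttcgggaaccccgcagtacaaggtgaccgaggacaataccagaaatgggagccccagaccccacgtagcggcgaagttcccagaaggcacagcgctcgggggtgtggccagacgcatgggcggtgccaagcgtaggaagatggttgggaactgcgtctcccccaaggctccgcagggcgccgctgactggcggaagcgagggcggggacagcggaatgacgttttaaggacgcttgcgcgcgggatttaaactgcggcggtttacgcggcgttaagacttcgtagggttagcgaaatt

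The CDC20 window lies at chr1:43358731-43359030 on the plus strand and holds 2 CHR and 2 CCAAT matches. The CENPA window, at chr2:26785806-26786105 on the plus strand, holds 1 CHR and 2 CCAAT matches. The MAD2L1 window, at chr4:120066799-120067098 on the minus strand, holds 1 of each. The KIF2C window, at chr1:44739587-44739886 on the plus strand, holds neither, so 1 of these 4 genes has no such letters in this window.

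Values are log2 of the deposited intensity, at the brightest probe of each gene unless a probe is named. All 36 genes lay above the median gene level of 8.71. A gene was called where limma's Benjamini-Hochberg adjusted p, taken over all 17199 genes, was under 0.05. Markers of neuroblastoma cells and of other cell types were read on the same scale. Of 9 noradrenergic neuroblastoma markers measured, 8 lay above the median level in the IMR-32 HOXC9 arrays, 9 in the IMR-32 GFP arrays, 5 in the SK-N-AS HOXC9 arrays and 8 in the SK-N-AS GFP arrays. Of 6 mesenchymal neuroblastoma markers 3 lay above it in SK-N-AS, and 1 did in IMR-32, under either label. Their summed level, as log2, was 15.76 to 16.13 with HOXC9 against 14.63 to 14.87 with GFP in IMR-32, and 16.99 to 17.24 against 17.15 to 17.31 in SK-N-AS. Some of them moved with the label and did not overlap between the groups: VIM, the intermediate filament vimentin, had means of 15.89 ± 0.14 with HOXC9 and 14.74 ± 0.08 with GFP in IMR-32, and CD44, a hyaluronan receptor, 5.07 ± 0.58 with HOXC9 and 1.17 ± 0.56 with GFP in SK-N-AS (SD, n = 6 each). The sum is mostly VIM, which lay between 15.76 and 16.12 in the IMR-32 HOXC9 arrays. The markers did not move together. In IMR-32 the YAP1 mean was higher with HOXC9 too, but those of FN1, CD44, PRRX1 and NOTCH2 were lower. FN1 lay between 6.44 and 6.67 with HOXC9 and between 6.98 and 7.34 with GFP, without overlap. In SK-N-AS VIM alone of these markers had a lower mean with the HOXC9 label. Of 3 endothelial markers 0 lay above it in any group, and of 3 leukocyte markers 0 did in IMR-32. In SK-N-AS the leukocyte phosphatase PTPRC had a mean of 12.52 ± 0.27 with the HOXC9 label and of 12.58 ± 0.41 with the GFP label (SD, n = 6 each), while CD3E and CD14 averaged at most 6.82. Of the epithelial markers, KRT8 lay above the median level in all 4 groups, and EPCAM was at 15.99 on the IMR-32 GFP array of 12 h and at 5.12 to 5.49 on that group's other 5. The part of these markers in the results was not tested.

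The HOXC9 probe bore out the label in IMR-32 and went against it in SK-N-AS. In IMR-32 it lay between 9.86 and 10.34 in the HOXC9 arrays and between 5.63 and 6.25 in the GFP arrays, a difference of 4.09 ± 0.11 (SE, limma adjusted p = 5.3e-09). In SK-N-AS it lay between 11.63 and 11.90 in the arrays labelled HOXC9 and between 12.09 and 12.47 in those labelled GFP. The difference was -0.52 at 0, 48 and 96 h (limma adjusted p = 0.0285) and -0.61 at 6, 12 and 24 h (limma adjusted p = 0.0104). Every direction given for SK-N-AS is therefore that of the arrays labelled HOXC9 against those labelled GFP. Under the HOXC9 label of this line, the arrays of 6, 12 and 24 h stand apart from those of 0, 48 and 96 h over the features above a log2 level of 9. Pairs across the 2 sets correlated at 0.936 to 0.958 and pairs within a set at 0.99 to 0.998, where all pairs of the GFP arrays had 0.968 to 0.993. Of 14471 features above a log2 level of 9, 380 to 639 on each of these 6 arrays were 2-fold or more below the median of the group's other hours, against 1 to 140 on the GFP arrays. The 2 sets of hours are therefore given apart.

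The IMR-32 GFP arrays of 0 h and 48 h stand apart from the others, and some of the mitosis genes with them. Of 14471 features above a log2 level of 9, 443 on the 0 h array and 189 on the 48 h array lay 2-fold or more below the median of the group's other hours, against 4 and 2 that lay as far above. On the other 4 IMR-32 GFP arrays 0 to 8 features lay so far below. Among the mitosis genes 8 of 36 (22.2%) were at least 2-fold below the mean of 6, 12, 24 and 96 h on the 0 h array, where 3.34% of the genes above the median level were. On the 48 h array 4 of 36 (11.1%) were, against 1.36%. Genes of other functions went as far, such as ANKRD12 at -3.46 and CEP290 at -2.91 on the 0 h array. The IMR-32 calls are given with these hours and without them. Leaving these hours out removes their HOXC9 arrays too, and leaves 6 residual degrees of freedom in place of 8.

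In IMR-32, part of the mitosis genes were higher in the HOXC9 arrays and none was called lower. Over all 6 hours 10 of 36 were called higher and 0 lower, where 39.2% of all genes were called, 19.3% higher and 19.9% lower. At an unadjusted limma p under 0.05, 14 were higher and 1 was lower, where 49.1% of all genes passed in either direction. The median difference of the 36 genes was 0.21, and that of all genes was -0.01. Without the arrays of 0 and 48 h, 5 of 36 were called higher and 0 lower, where 25.5% of all genes were called and 13.5% were called higher, so the share of the 36 is close to that of all genes. The median of the 36 was then 0.06. Among genes above the median level, as all 36 are, 38.9% were called over all hours, 18.2% higher. In 10 of 36 genes (27.8%) every HOXC9 array lay above every GFP array, where 13.2% of the genes above the median level did so, and in 1 (2.78%), BIRC5, every one lay below, against 13.9%.

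**Figure D1:**
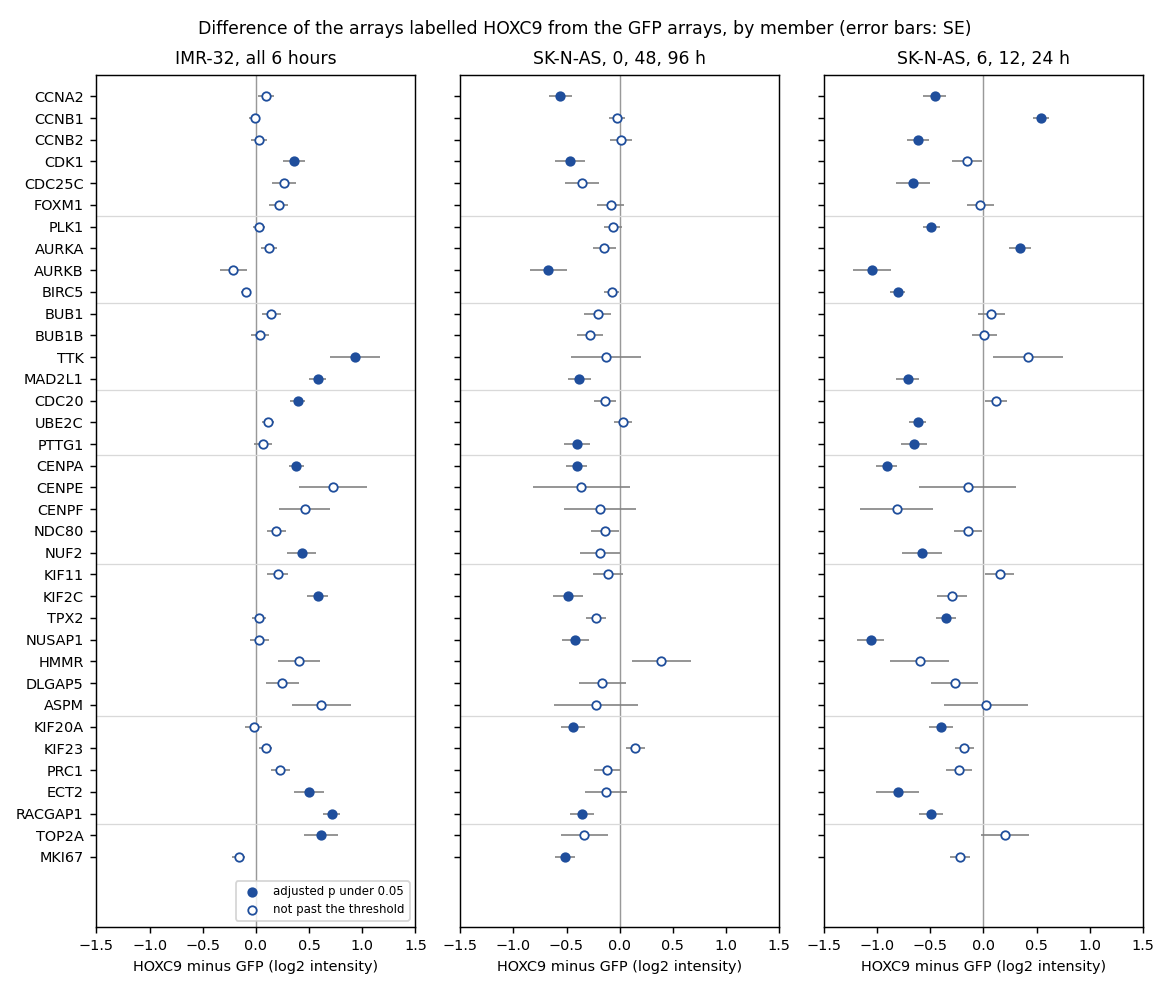
Difference of the arrays labelled HOXC9 from the GFP arrays for each of the 36 genes, as a fitted log2 intensity difference with its SE, in IMR-32 over all 6 hours and in SK-N-AS in the 2 sets of hours. Filled points passed a limma adjusted p of 0.05 over all genes, 10 to the right of 0 in IMR-32, 11 to the left in SK-N-AS at 0, 48 and 96 h, and 16 to the left with 2 to the right at 6, 12 and 24 h. Grey lines separate the roles.

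RACGAP1, which with the kinesin KIF23 builds the centralspindlin complex that places the cleavage furrow, showed the clearest difference in IMR-32. It had a lowest level of 12.94, a median of 13.19 and a highest of 13.37 in the HOXC9 arrays, against 12.33, 12.46 and 12.53 in the GFP arrays. The groups do not overlap. The difference was 0.71 ± 0.08 (SE, limma adjusted p = 0.00011), and 0.73 without the arrays of 0 and 48 h. KIF23 itself differed by 0.09 and did not pass (limma adjusted p = 0.271). The second RACGAP1 probe gave 0.53.

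KIF2C, a kinesin that takes microtubule ends apart at the centromere, lay between 13.09 and 13.34 in the HOXC9 arrays, with a median of 13.13, and between 12.54 and 12.62 in the GFP arrays, with a median of 12.59. Every HOXC9 array was above every GFP array. The difference was 0.58 ± 0.10 (SE, limma adjusted p = 0.00157) and 0.56 without the arrays of 0 and 48 h. The other spindle motors and assembly factors were not called: KIF11, which pushes the poles apart, differed by 0.20, TPX2, an activator of AURKA, by 0.03, and NUSAP1, which bundles microtubules, by 0.03.

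MAD2L1, the checkpoint protein that holds CDC20 back until chromosomes are attached, lay between 14.17 and 14.38 in the HOXC9 arrays (median 14.27) and between 13.30 and 13.94 in the GFP arrays (median 13.78). The groups do not overlap. The difference was 0.58 ± 0.08 (SE, limma adjusted p = 0.000364) and 0.43 without the arrays of 0 and 48 h, and the second MAD2L1 probe gave 0.75. CDC20, which turns on the anaphase-promoting complex, lay between 11.04 and 11.42 in the HOXC9 arrays (median 11.10) and between 10.61 and 10.88 in the GFP arrays (median 10.78). Its difference was 0.39 with and without those hours (limma adjusted p = 0.00236 over all hours). Thus a checkpoint protein and its target were both higher, while UBE2C, the ubiquitin-conjugating enzyme of the complex, differed by 0.11 and PTTG1, the securin it destroys, by 0.06, neither past the threshold.

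CENPA, the histone H3 variant that marks the centromere, lay between 10.74 and 11.36 in the HOXC9 arrays (median 11.04) and between 10.62 and 10.73 in the GFP arrays (median 10.66). Its difference was 0.38 ± 0.07 (SE, limma adjusted p = 0.00198) and 0.42 without the arrays of 0 and 48 h. The lowest HOXC9 array, at 96 h, was just above the highest GFP array. RACGAP1, KIF2C, MAD2L1, CDC20 and CENPA are the 5 genes called higher with and without those hours.

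**Figure D2:**
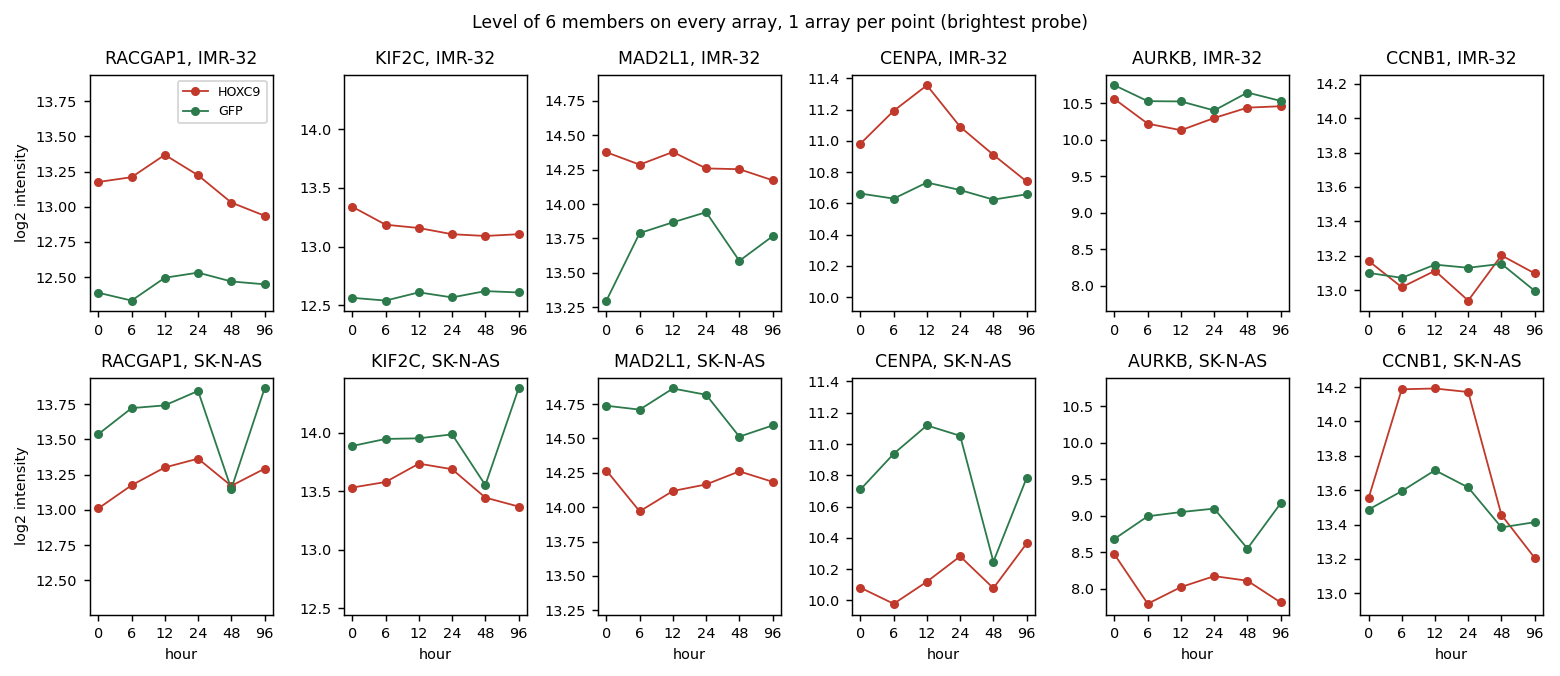
Log2 intensity of RACGAP1, KIF2C, MAD2L1, CENPA, AURKB and CCNB1 on every array by hour (axis in the order of hours, not to scale), 1 array per point, IMR-32 above and SK-N-AS below, with HOXC9 in red and GFP in green. In IMR-32 the RACGAP1, KIF2C, MAD2L1 and CENPA points of HOXC9 lie above those of GFP at all 6 hours. In SK-N-AS the CCNB1 points of HOXC9 lie above those of GFP at 6, 12 and 24 h, and the AURKB points lie below at all 6 hours.

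The other 5 called genes rest on the arrays of 0 and 48 h. TTK, the kinase that starts the spindle checkpoint, had 10.70, 10.79, 10.67, 10.63, 10.61 and 10.66 in the HOXC9 arrays from 0 to 96 h, against 8.12, 10.30, 10.42, 10.51, 8.94 and 10.18 in the GFP arrays. Its difference was 0.93 ± 0.23 (SE, limma adjusted p = 0.0108), and 0.34 without those hours (limma adjusted p = 0.198). TOP2A, the topoisomerase that untangles sister chromatids, differed by 0.61 (limma adjusted p = 0.0128), and by 0.31 without them (limma adjusted p = 0.182). ECT2, which activates RhoA at the furrow, differed by 0.50 and 0.13 without them. NUF2, a subunit of the NDC80 complex that grips microtubules, differed by 0.43 and by 0.12 without them, and CDK1 by 0.36 ± 0.10 (SE, limma adjusted p = 0.0184) and by 0.17 without them. With these hours left out all 5 differences were still positive, and none passed.

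The largest gaps on those 2 GFP arrays belonged to uncalled genes. CENPE, a kinesin that carries chromosomes to the spindle equator, had 11.86, 12.29, 12.21, 11.19, 11.75 and 12.34 in the HOXC9 arrays from 0 to 96 h, against 8.55, 12.37, 12.45, 12.29, 9.69 and 11.95 in the GFP arrays. Set against the mean of 6, 12, 24 and 96 h, CENPE was at -0.15 and -0.26 on the HOXC9 arrays of 0 and 48 h and at -3.72 and -2.57 on the GFP arrays of those hours. ASPM, a spindle pole protein, was at -0.18 and -0.38 on the HOXC9 arrays and at -3.09 and -2.29 on the GFP arrays. CENPF, a large kinetochore protein, was at -0.16 and -0.50 on the HOXC9 arrays and at -2.51 and -1.74 on the GFP arrays. The fitted differences changed sign with these hours left out: CENPE had 0.73 and then -0.25, ASPM 0.62 and then -0.19, and CENPF 0.46 and then -0.14.

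**Figure D3:**
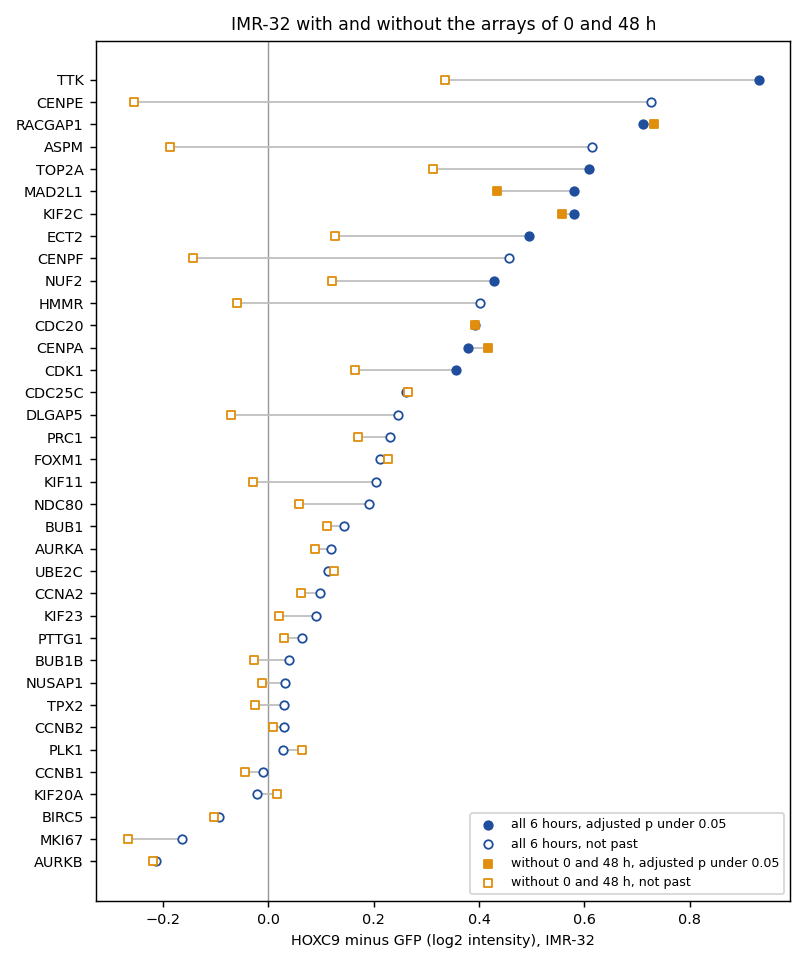
Fitted difference of the HOXC9 from the GFP arrays in IMR-32 (log2 intensity) for each of the 36 genes, over all 6 hours (circles) and without the arrays of 0 and 48 h (squares), joined by a line. Filled marks passed a limma adjusted p of 0.05. RACGAP1, KIF2C, CDC20 and CENPA hardly move between the marks, MAD2L1 has 0.58 with all hours and 0.43 without those of 0 and 48 h, and CENPE, ASPM and CENPF cross 0.

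Cyclin B1, PLK1, the passenger complex, FOXM1 and MKI67 did not pass in IMR-32. CCNB1, cyclin B1, had a median of 13.10 in the HOXC9 arrays and 13.11 in the GFP arrays, a difference of -0.01 ± 0.05 (SE, limma adjusted p = 0.892). PLK1, the polo-like kinase that drives mitotic entry, differed by 0.03 ± 0.06 (SE), and BIRC5, survivin, a subunit of the chromosomal passenger complex, by -0.09. AURKB, the kinase of that complex, was lower at each of the 6 hours, with a difference of -0.21 ± 0.12 (SE, limma adjusted p = 0.203). MKI67, the Ki-67 proliferation mark, differed by -0.16 ± 0.07 (SE, limma adjusted p = 0.0725), and FOXM1, the forkhead factor that transcribes many of these genes, by 0.21 ± 0.09 (SE, limma adjusted p = 0.0872). The groups overlap in these genes, except in BIRC5.

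In SK-N-AS at 0, 48 and 96 h the direction was the other: 11 of 36 genes were called lower in the arrays labelled HOXC9 and 0 higher, where 36% of all genes were called, 18.2% lower and 17.7% higher. At an unadjusted limma p under 0.05, 13 were lower and 0 higher, where 45.4% of all genes passed in either direction. The median difference of the 36 was -0.20, and that of all genes was -0.01. In 8 of 36 genes (22.2%) all 3 arrays labelled HOXC9 lay below all 3 labelled GFP, and this held for 20.2% of the genes above the median level. By hour, 29 of 36 were lower at 0 h (median difference -0.18), 14 at 48 h (median 0.04) and 35 at 96 h (median -0.50). Left out in turn, the pair of 96 h left 5 called lower, that of 0 h 6 and that of 48 h 10, with the share of all genes called in those fits not taken.

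Among the cyclins and their kinase, CCNA2, cyclin A2, had 12.15, 12.03 and 11.82 at 0, 48 and 96 h in the arrays labelled HOXC9, against 12.63, 12.34 and 12.72 in those labelled GFP. The groups do not overlap, and the difference was -0.56 ± 0.11 (SE, limma adjusted p = 0.00279). CDK1 had 13.02, 12.99 and 12.90, against 13.30, 13.25 and 13.75 with GFP, a difference of -0.46 ± 0.14 (SE, limma adjusted p = 0.0281). CCNB1 had 13.55, 13.46 and 13.21, against 13.49, 13.38 and 13.41 with GFP. Cyclin B1 thus overlapped between the groups, with a difference of -0.02 ± 0.07 (SE), and FOXM1 differed by -0.08 ± 0.13 (SE), neither past the threshold.

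AURKB had the largest difference at these hours. It had 8.47, 8.11 and 7.82 in the arrays labelled HOXC9, against 8.69, 8.55 and 9.17 with GFP, a difference of -0.67 ± 0.18 (SE, limma adjusted p = 0.0146), most of it at 96 h. MKI67 had 8.39, 8.18 and 7.90, against 9.0, 8.52 and 8.49 with GFP, and fell by 0.51 on the log2 scale (SE 0.09, limma adjusted p = 0.00203). KIF2C had 13.53, 13.45 and 13.37, against 13.89, 13.55 and 14.38 with GFP, a difference of -0.49 ± 0.14 (SE, limma adjusted p = 0.023). In all 3 genes the labelled groups do not overlap.

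The remaining called genes act from the centromere to the central spindle. KIF20A, a kinesin of the central spindle, differed by -0.44, NUSAP1 by -0.42, CENPA by -0.41, PTTG1 by -0.40, MAD2L1 by -0.38 and RACGAP1 by -0.36, with limma adjusted p between 0.00905 and 0.0331. RACGAP1 had 13.01, 13.17 and 13.29 in the arrays labelled HOXC9, against 13.54, 13.15 and 13.86 with GFP, so its 48 h arrays were close. PLK1 differed by -0.06, CDC20 by -0.14 and TOP2A by -0.33, none past the threshold. HMMR, a microtubule-binding protein of the spindle, was the highest of the 36, at 0.39 ± 0.28 (SE), and did not pass.

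In SK-N-AS at 6, 12 and 24 h, 16 of 36 genes were called lower in the arrays labelled HOXC9 and 2 higher, where 47.7% of all genes were called, 23.6% lower and 24.2% higher. Among genes above the median level, as all 36 are, 61.1% were called, 32.9% lower. The median difference of the 36 was -0.32, against -0.04 for the genes above the median level. In 24 of 36 (66.7%) every array labelled HOXC9 lay below every one labelled GFP, and in 3 (8.33%) every one lay above; among genes above the median level these shares were 41.5% and 36.8%. Left out in turn, the pair of 6 h left 9 called lower, that of 24 h 12 and that of 12 h 14, again without a share of all genes for those fits.

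**Figure D4:**
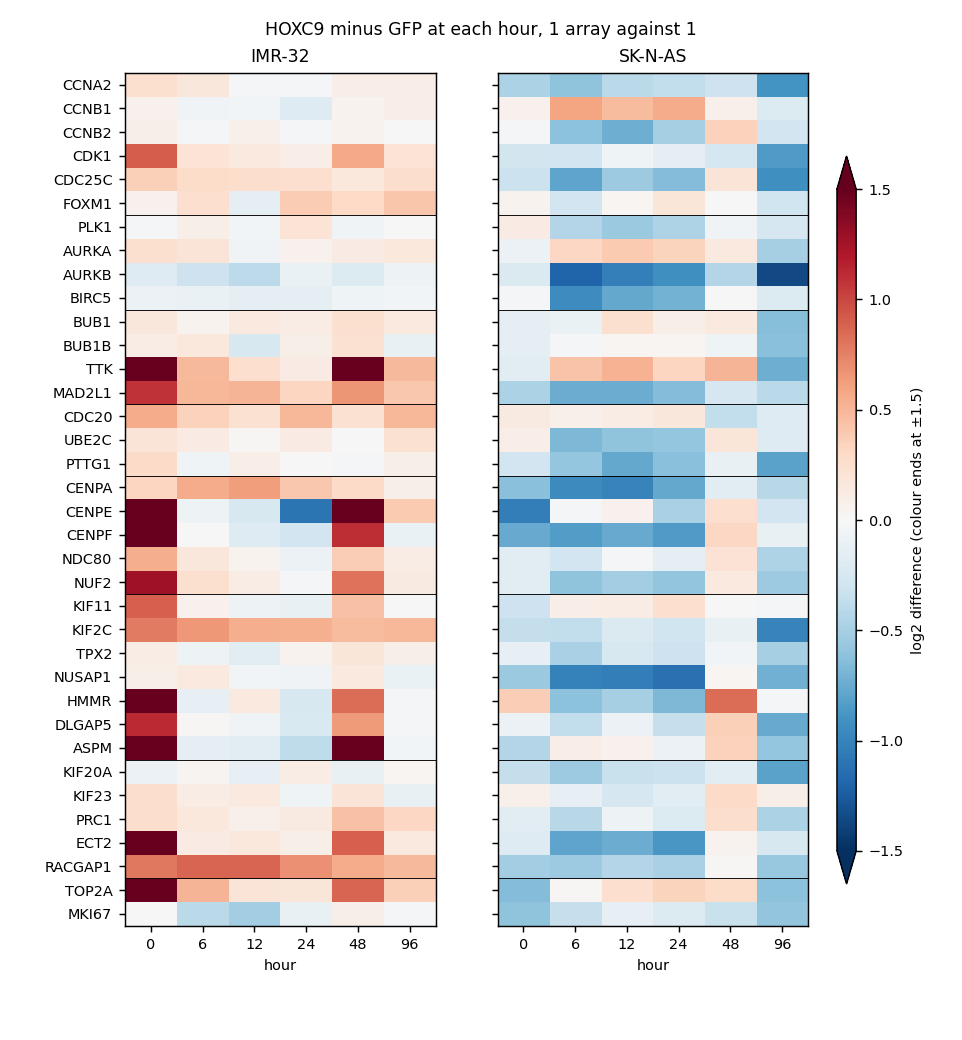
Difference of the array labelled HOXC9 from the GFP array of the same hour (log2 intensity, colour scale ending at ±1.5) for each of the 36 genes, 1 array against 1, in IMR-32 and SK-N-AS. In IMR-32 the deep red cells of CENPE, CENPF, ASPM and TTK stand at 0 and 48 h. In SK-N-AS most cells are blue, with 29 of 36 genes lower at 0 h and at 6 h, 25 at 12 h, 27 at 24 h, 14 at 48 h and 35 at 96 h, and CCNB1 and AURKA are red at 6, 12 and 24 h.

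The cyclins parted at these hours. CCNB1 had 14.19, 14.19 and 14.17 at 6, 12 and 24 h in the arrays labelled HOXC9, against 13.59, 13.72 and 13.62 with GFP, and was higher by 0.54 ± 0.07 (SE, limma adjusted p = 0.000176). Its second probe gave 0.35 (limma adjusted p = 0.0044 over all features). CCNB2, cyclin B2, had 13.90, 14.04 and 14.11, against 14.52, 14.77 and 14.61 with GFP, and was lower by a difference of -0.62 ± 0.10 (SE, limma adjusted p = 0.000833). CCNA2 differed by -0.46 and CDC25C by -0.66, both called, while CDK1 differed by -0.16 ± 0.14 (SE) and FOXM1 by -0.03 ± 0.13 (SE), neither called. Cyclin B1 and cyclin B2, partners of the same kinase, were therefore called in opposite directions.

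The kinases parted too. AURKA, which matures the spindle poles, had 12.77, 12.87 and 12.84 in the arrays labelled HOXC9, against 12.46, 12.48 and 12.51 with GFP, a difference of 0.34 ± 0.11 (SE, limma adjusted p = 0.023). It lost its call without any 1 of the 3 pairs. AURKB had 7.80, 8.03 and 8.18, against 9.0, 9.05 and 9.10 with GFP, a difference of -1.05 ± 0.18 (SE, limma adjusted p = 0.000766). Its partner BIRC5 had 14.47, 14.79 and 14.79, against 15.42, 15.55 and 15.49 with GFP, a difference of -0.81 ± 0.07 (SE, limma adjusted p = 9.55e-06), and its second probe gave -1.46. PLK1 had 13.86, 13.99 and 13.97, against 14.30, 14.55 and 14.43 with GFP, and differed by -0.49 ± 0.08 (SE, limma adjusted p = 0.000748). In these 4 genes the labelled groups do not overlap.

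NUSAP1 had the largest difference of the 36 at these hours. It had 10.61, 10.83 and 10.73 in the arrays labelled HOXC9, against 11.62, 11.87 and 11.85 with GFP, a difference of -1.06 ± 0.13 (SE, limma adjusted p = 7.98e-05). CENPA had 9.98, 10.12 and 10.28, against 10.94, 11.12 and 11.05 with GFP, a difference of -0.91 ± 0.10 (SE, limma adjusted p = 3.95e-05). MAD2L1 had 13.97, 14.12 and 14.17, against 14.71, 14.86 and 14.82 with GFP, a difference of -0.71 ± 0.11 (SE, limma adjusted p = 0.000487). Each of these was lower on all 3 pairs with no overlap. At the onset of anaphase PTTG1 differed by -0.65 and UBE2C by -0.62, both called, and CDC20 by 0.12, not called. In the central spindle ECT2 differed by -0.81, RACGAP1 by -0.49 and KIF20A by -0.40, and in the spindle TPX2 by -0.35 and, at the kinetochore, NUF2 by -0.58, all called.

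Of the 11 genes lower at 0, 48 and 96 h and the 16 lower at 6, 12 and 24 h, 8 were called in both sets of hours: AURKB, CCNA2, CENPA, KIF20A, MAD2L1, NUSAP1, PTTG1 and RACGAP1. CDK1, KIF2C and MKI67 were called at 0, 48 and 96 h alone, and BIRC5, CCNB2, CDC25C, ECT2, NUF2, PLK1, TPX2 and UBE2C at 6, 12 and 24 h alone. Whether these 11 genes differ between the sets of hours was not tested. The share of all genes called lower in both sets of hours was not taken, so the 8 have no background to be set against. MKI67 differed by -0.22 ± 0.09 (SE, limma adjusted p = 0.0746) at 6, 12 and 24 h and TOP2A by 0.20 ± 0.22 (SE, limma adjusted p = 0.498).

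Probes of the same gene disagreed in some genes at 6, 12 and 24 h in SK-N-AS, so that a call there depends on the probe. ASPM gave 0.03 at its brighter probe and -1.52 at the other (limma adjusted p = 0.0036 over all features). KIF11 gave 0.15 and -0.68, and CENPF -0.82 and 0.02. NDC80, the lead subunit of its complex, gave -0.14 and -0.63, and the 3 probes of ECT2 gave -0.81, -0.03 and -1.36. A dim probe of CDK1, with a mean of 6.42, gave -2.65, where the bright one gave -0.16. Probes of CCNB1, PLK1, BIRC5, MAD2L1 and RACGAP1 had the same sign. Over all 49 probes 3 were called higher and 25 lower, where 42.5% of all 44708 features were called. In IMR-32 15 of the 49 were called higher and 0 lower (36.8% of all features called), and in SK-N-AS at 0, 48 and 96 h 0 higher and 13 lower (27.2%).

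Over the hours within SK-N-AS, the levels of the 36 genes also differed between the sets of hours in the GFP arrays. At 6, 12 and 24 h 35 of 36 were higher in the GFP arrays than at 0, 48 and 96 h, with a median over the 36 of 0.27, where genes above the median level had a median shift of 0.01. In the arrays labelled HOXC9 21 of 36 were higher and 15 lower, and the median over the 36 was 0.23, against -0.07 for genes above the median level. Taken without sign, the median shift in the arrays labelled HOXC9 was 0.31 for the 36 and 0.35 for genes above the median level. Shifts of this size were thus common under this label. TOP2A, TTK, CENPE, CCNB1 and AURKA were the furthest up in these arrays, TTK by 0.85, CENPE by 0.80 and CCNB1 and AURKA by 0.78 each, while UBE2C differed by -0.59 and BIRC5 by -0.55. TOP2A had 12.65, 12.89 and 13.02 at 6, 12 and 24 h in the arrays labelled HOXC9 and 11.68, 12.02 and 11.85 at 0, 48 and 96 h. These values were not tested, since the set of hours was picked with the data known.

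The difference between the lines in the effect of the label was tested at 0, 48 and 96 h of both lines. The SK-N-AS minus IMR-32 difference was called below 0 for 15 of 36 genes and above 0 for none, where 37.5% of all genes were called, 18.9% lower. Among genes above the median level 37.4% were called, 19.2% lower and 18.3% higher. With the IMR-32 effect taken at 6, 12, 24 and 96 h in its place, so without its arrays of 0 and 48 h, 9 of 36 were lower and 0 higher. Of all genes 39.9% were called, 20.2% lower and 19.7% higher, so the count called lower is not far above that share. The 9 were CCNA2 at -0.62, CDC20 at -0.53, CDK1 at -0.63, CENPA at -0.82, KIF20A at -0.46, KIF2C at -1.05, MAD2L1 at -0.81, RACGAP1 at -1.09 and TOP2A at -0.64. MAD2L1 had -1.10 ± 0.16 (SE, limma adjusted p = 0.000567) with all arrays, RACGAP1 -0.97 ± 0.16 (SE, limma adjusted p = 0.00129) and KIF2C -1.07 ± 0.20 (SE, limma adjusted p = 0.0026). CDK1, CENPA, KIF2C, MAD2L1 and RACGAP1 were called higher in IMR-32 over all 6 hours and lower in SK-N-AS at 0, 48 and 96 h, in separate contrasts of the same fit. CDK1 lost its IMR-32 call without the arrays of 0 and 48 h. The share of all genes called in these opposite directions was not taken. These differences rest on the SK-N-AS labels, which the HOXC9 probe goes against. With those labels exchanged, which turns the sign of the SK-N-AS effect, 2 of 36 were called lower, HMMR and TTK, and 3 higher, MKI67, AURKB and KIF20A. Of all genes 26.9% were called, 13.6% lower and 13.2% higher, so both counts are below those shares. MAD2L1 then had -0.34, RACGAP1 -0.25, KIF2C -0.09 and CDK1 -0.10, none called. With the labels as given, CCNB1 (-0.10 ± 0.10), PLK1 (-0.04 ± 0.12) and BIRC5 (-0.01 ± 0.10, SE) did not pass.

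Between the GFP arrays of the 2 lines, 17 of 36 genes were called higher in SK-N-AS and 6 lower, where 68% of all genes were called, 38.3% higher and 29.7% lower. Among genes above the median level 72% were called, 39.6% higher and 32.4% lower. The median of the 36 was 0.25, and that of all genes was 0.13. CDC20 lay between 11.86 and 12.24 in SK-N-AS (median 11.93) and between 10.61 and 10.88 in IMR-32 (median 10.78), a difference of 1.21 ± 0.07 (SE, limma adjusted p = 7.12e-06). KIF2C differed by 1.36 ± 0.11 and RACGAP1 by 1.20 ± 0.11 (SE), both with limma adjusted p under 0.001, and MAD2L1 by 1.00, CCNA2 by 0.88 and CDK1 by 0.69. Among the genes that were higher in IMR-32, AURKB lay between 8.55 and 9.17 in SK-N-AS (median 9.02) and between 10.40 and 10.74 in IMR-32 (median 10.53), a difference of -1.64 ± 0.14 (SE, limma adjusted p = 4.2e-05).

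BIRC5, its partner in the passenger complex, was lower in SK-N-AS too. It differed by -1.0 ± 0.07 (SE, limma adjusted p = 1.72e-05), PRC1, which bundles the central spindle, by -0.66, MKI67 by -0.53, CCNB2 by -0.43 and FOXM1 by -0.37. CCNB1 differed by 0.44 and PLK1 by 0.24, PLK1 with limma adjusted p = 0.0484. The HOXC9 against GFP comparison of IMR-32 uses the same IMR-32 GFP arrays as this one. Without the GFP arrays of 0 and 48 h of both lines 18 were called higher and 7 lower. Of all genes 66.4% were called, 36.9% higher and 29.5% lower.

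**Figure D5:**
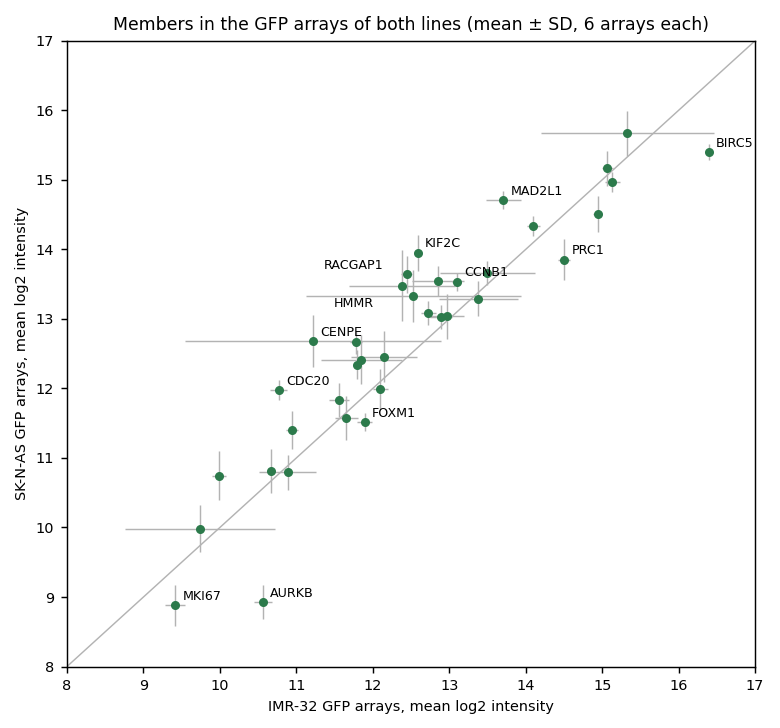
Mean log2 intensity (± SD over 6 arrays) of the 36 genes in the GFP arrays of SK-N-AS (vertical) against IMR-32 (horizontal), with the line of equal levels. KIF2C, RACGAP1, CDC20, MAD2L1 and CENPE lie above the line, and AURKB, BIRC5, PRC1, MKI67 and FOXM1 lie below it. The wide horizontal bar of CENPE spans IMR-32 GFP values of 8.55 at 0 h and 9.69 at 48 h and of 11.95 to 12.45 at the other hours.

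A change with the hour was tested in 3 of the 4 groups, as a slope on log2(1 + h/6). With all hours in the fit no gene of the 36 passed in any of them. SK-N-AS with the HOXC9 label, whose hours fall into 2 sets, was not fitted. A slope can miss levels that are highest at 6, 12 and 24 h, as most were in the SK-N-AS GFP arrays. The spread of a gene was pooled over the 3 groups, so it includes the IMR-32 GFP arrays of 0 and 48 h that stand apart. The lack of calls therefore does not show that levels were steady over the hours. In the IMR-32 HOXC9 arrays 0 of 36 were called (0% of all genes called), with slopes between -0.08 and 0.05, and at an unadjusted limma p under 0.05 there were 0 (1.88% of all genes). In the IMR-32 GFP arrays 0 of 36 were called (0%), with slopes between -0.04 and 0.34, and 0 at an unadjusted p under 0.05 (2.42% of all genes). In the SK-N-AS GFP arrays 0 of 36 were called, where 0.0407% of all genes were (0.0174% lower) and 0.0349% of those above the median level (0.0116% lower), with slopes between -0.15 and 0.06. MKI67 alone of the 36 had an unadjusted limma p under 0.05, 0.0141, where 11.7% of all genes did.

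The other genes of the pathway were counted in 6 lists that hold 122 measured genes. In IMR-32, of 32 other kinetochore and centromere genes 7 were higher with HOXC9 and 4 lower, and of 30 other spindle, centrosome and cytokinesis genes 11 were higher and 1 lower. Of 19 genes in the list of condensin, cohesin and separase, which also holds PLK4, 7 were higher, PLK4 among them, and 0 lower. Of 12 regulators of CDK1 and the G2 checkpoint 4 were higher and 1 lower, of 15 APC/C genes 3 were higher and 2 lower, and of 14 genes of DREAM, MuvB, MYBL2 and NF-Y 0 were called either way, with differences between -0.15 and 0.34 and a smallest limma adjusted p of 0.0669. The background was 19.3% higher and 19.9% lower among all genes, so the kinetochore and APC/C counts called higher are near that share. CENPK, a subunit of the constitutive centromere network, was higher by 0.79 ± 0.10 (SE, limma adjusted p = 0.000263), ANAPC7, an APC/C subunit, by 0.64, and PLK4, the kinase of centriole duplication, by 0.62. MAD1L1, the anchor of MAD2L1 at kinetochores, was lower by a difference of -0.49 ± 0.08 (SE, limma adjusted p = 0.00101).

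In SK-N-AS at 0, 48 and 96 h the same lists had 9 lower and 1 higher of 32 kinetochore genes, 8 lower and 1 higher of 30 spindle genes, 3 lower and 0 higher of 19 condensin and cohesin genes, 6 lower and 1 higher of 12 CDK1 regulators, 4 lower and 3 higher of 15 APC/C genes, and 4 lower and 1 higher of 14 DREAM and NF-Y genes. The background was 18.2% lower and 17.7% higher among all genes, and the condensin and cohesin count lower is not above that share. KIFC1, a kinesin that clusters spindle poles, differed by -0.93 ± 0.11 (SE, limma adjusted p = 0.000207), E2F5, an E2F factor, by -0.81, and CDC25A, a phosphatase of the cyclin-dependent kinases, by -0.66. ANAPC7, higher in IMR-32, was lower at these hours, at -0.43 (limma adjusted p = 0.00243). Among the genes called higher were ENSA at 0.50, LIN37 at 0.40 and MIS12 at 0.32.
At 6, 12 and 24 h the counts lower and higher were 14 and 4 of 32, 15 and 2 of 30, 11 and 1 of 19, 6 and 1 of 12, 4 and 6 of 15, and 8 and 1 of 14, in the same order. The background was 23.6% lower and 24.2% higher among all genes, and among those above the median level 32.9% lower and 28.2% higher. There TACC3, a spindle stabiliser, differed by -1.68, PDS5B, a cohesin regulator, by -1.58, and NFYA, the DNA-binding subunit of NF-Y, by -0.86, while MIS12, a kinetochore scaffold, was higher by 1.16 and ANAPC7 by 0.88.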

How the data were processed

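Per the labels' protocols, TRIzol-extracted total RNA was amplified with a one-colour kit that labels it with Cy3. The submitters' processing notes name limma, with no version, and background correction is not given in the sources used here. The deposited values are linear intensities, from 1.32 to 309395 units over 44708 features, and the authors had brought all 24 arrays to a common distribution: they differ by at most 0.0723% at any rank, around a median of 114. They hold no counts, so depth is unknown and precision is limited by how many arrays there are.

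Deposited intensities were log2-transformed without an offset. Of the features, 27942 have 1 gene symbol in the platform annotation and 16766 none. Symbols were updated through RefSeq's gene table, giving 17199 genes, each represented by its brightest probe (7572 genes have 2 or more). Groups came from the labels. The main limma fit used 24 arrays, 12 line-by-hour blocks and an effect of the label per line and set of hours (8 residual degrees of freedom). The SK-N-AS against IMR-32 comparison of GFP arrays had hour as a block (5 degrees), and slopes over hours used 18 arrays (12 degrees). P-values are two-sided, from limma's eBayes, with Benjamini-Hochberg adjustment over all genes, and a gene was called under 0.05. As a check of the hour block, the correlation of same-hour arrays of the 2 labels was taken after group means were removed; it lay between 0.140 and 0.427 for IMR-32 arrays and between -0.074 and 0.198 for SK-N-AS arrays.

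The 36 genes, the other lists, the split of the SK-N-AS hours and the tests were chosen with earlier results of these data known. Named were, in each comparison, the called genes with the smallest p per role, those with the largest differences, and CCNB1, CDK1, PLK1, AURKB, CDC20, TOP2A, MKI67 and FOXM1; from the other lists, called genes with the smallest p. Alternatives were other scalings, an offset of 16 units, dim genes left out, the median of a gene's probes, other eBayes settings, array weights, each line alone, no block, other hours and leaving out each hour. Leaving out the arrays of 0 and 48 h (of IMR-32, and of all groups for the GFP comparison and the slopes) and exchanging the SK-N-AS labels for the difference between lines were chosen after seeing the data. The fits were tested on simulated data. limma 3.58.1 ran under R 4.3.3. Tables and plots were made under Python 3.11.15 (matplotlib 3.10.9, numpy 2.4.6, pandas 2.3.3).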

Additional observations from a re-analysis of the deposited data

Results flagged for a closer look

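The effect of the label differed between the lines at 0, 48 and 96 h for 15 of the 36 genes, by a limma contrast of SK-N-AS minus IMR-32. Of all genes 37.5% were called, 18.9% lower. The difference was -2.28 for CENPE, -1.70 for TTK, -1.69 for ASPM, -1.25 for TOP2A, -1.10 for MAD2L1, -1.07 for KIF2C, -1.03 for CDK1, -1.0 for ECT2, -0.97 for RACGAP1, -0.93 for NUF2, -0.71 for CCNA2, -0.63 for CENPA, -0.57 for CDC20, -0.53 for MKI67 and -0.52 for PTTG1. With the IMR-32 effect taken at 6, 12, 24 and 96 h it was -0.11 for CENPE and -0.04 for ASPM, neither called. TTK, ECT2, NUF2, MKI67 and PTTG1 lost their call in that setting as well. With the SK-N-AS labels exchanged 2 of 36 genes were called lower and 3 higher, where 13.6% and 13.2% of all genes were. Of the 15 genes TTK alone was still called lower, at -1.45. That value includes the IMR-32 GFP arrays of 0 and 48 h, where TTK lay at -2.23 and -1.41 against the mean of 6, 12, 24 and 96 h.

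In 2 of 144 groups of 6 arrays a single array lay far from the others by Dixon's criterion, which chance meets in about 1 of 20 groups. CCNA2 was at 12.34 on the SK-N-AS GFP array of 48 h, with the other 5 hours between 12.63 and 12.77. KIF23 was at 13.20 on the SK-N-AS array of 96 h labelled HOXC9, with the others between 12.91 and 13.02.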

How the results depend on the processing

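The number of arrays, 1 for each line, label and hour, limits every value here. The share of all genes was taken only without the arrays of 0 and 48 h and with the SK-N-AS labels exchanged. The counts under the other settings have no background to be set against. The count called higher in IMR-32, 10, was 5 without the arrays of 0 and 48 h (13.5% of all genes, against 19.3% with them). It was 6 with hours 6 to 96 h, 21 with array weights, and between 6 and 17 when each hour was left out in turn. The most calls came without 96 h. The count called lower there, 0, was 1 with genes above the median level alone and with each line alone, 2 with array weights, and 0 to 1 with an hour left out. In SK-N-AS at 0, 48 and 96 h the 11 called lower were 3 with each line alone, 6 with array weights and 5 to 10 with an hour left out. At 6, 12 and 24 h the 2 called higher were 1 with each line alone and 1 with any hour left out, and the 16 called lower were 9 to 14 with an hour left out. The 15 of the difference between lines were 9 with the IMR-32 effect taken without 0 and 48 h and 6 to 16 with an hour left out, and with the SK-N-AS labels exchanged 2 were lower and 3 higher. Upward slopes in SK-N-AS GFP, 0, were 0 to 2 with an hour left out. Without the arrays of 0 and 48 h of all groups there was 1, where 4.44% of all genes had one, against 0.0233% with all arrays. Without the replicate block of line and hour the counts were 12 higher in IMR-32, 11 lower and then 2 higher and 16 lower in SK-N-AS, 18 lower for the difference, and 14 higher and 6 lower between the GFP arrays. For that block, 4 of 12 arrays correlated best with the array of their own hour.

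Signs turned for small differences and for genes whose probes disagree. In IMR-32 CCNB1 was at 0.0056 with quantile normalization, CCNB1 lay between -0.032 and 0.026 and PLK1 between -0.0088 and 0.045 with an hour left out, and CENPE was at -0.25, CENPF at -0.14 and ASPM at -0.19 without the arrays of 0 and 48 h. In SK-N-AS at 0, 48 and 96 h array weights gave CCNB1 0.044, PLK1 0.026 and FOXM1 0.0019, and leaving out an hour gave CCNB1 -0.071 to 0.069, PLK1 -0.15 to 0.035 and FOXM1 -0.15 to 0.025. At 6, 12 and 24 h the median of a gene's probes gave ASPM -0.75 and KIF11 -0.26, and leaving out an hour gave FOXM1 -0.13 to 0.10 and ASPM -0.0073 to 0.085. For the difference between lines PLK1 was at 0.061 with array weights, CCNB1 at 0.022 with the IMR-32 effect taken without 0 and 48 h, and leaving out an hour gave CCNB1 -0.16 to 0.0092 and PLK1 -0.13 to 0.078. With the SK-N-AS labels exchanged, which turns the sign of 1 of its parts, the difference was 0.089 for PLK1, 0.83 for AURKB, 0.50 for MKI67, 0.41 for CCNA2, 0.18 for CENPA and 0.28 for PTTG1. The cause was not tested. Of the other results under planned settings 1160 single-gene values kept direction and side of the threshold, 103 lost their call and 21 gained one.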
